A study of Mus musculus with 8 samples.

Results

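The 10 iron and heme genes described here are Trf, Tfrc, Slc11a2, Fth1, Ftl1, Slc40a1, Ireb2, Alas1, Fech and Hmox1, which together cover the delivery, uptake, storage, export and sensing of iron and the making and breakdown of heme. They were found by symbol in the gene count table, where all 10 were present among 43346 genes, and all 10 passed the filter on low counts that left 16111 genes. The RNA came from the cardiac ventricles of male C57BL/6 mice. The 4 LLC1 mice (tumor-bearing) were injected with 1000000 LLC1 lung adenocarcinoma cells, a transplantable line of the same mouse strain, and the 4 PBS mice received the vehicle. All mice were injected at 7 weeks of age and sampled 14 days later. The question was which transcripts differ in the heart of a tumor-bearing mouse. Pieces of whole ventricle were sequenced, so fewer cells of a type and less RNA per cell cannot be told apart.

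Iron reaches most cells bound to transferrin (Trf), which is taken up by the transferrin receptor (Tfrc) and leaves the endosome through the transporter DMT1 (Slc11a2). Iron that is not used at once is stored in ferritin, a shell of heavy (Fth1) and light (Ftl1) chains, and ferroportin (Slc40a1) exports it. The iron regulatory proteins, among them IRP2 (Ireb2), bind hairpins called iron-responsive elements in messenger RNAs when iron is scarce. A hairpin in the 5′ UTR then blocks translation, and hairpins in the 3′ UTR of Tfrc protect that messenger from decay. Heme synthesis begins with ALA synthase (Alas1) and ends with ferrochelatase (Fech), which inserts the iron, and heme oxygenase (Hmox1) breaks heme down and frees the iron again. Cardiac muscle uses much iron in the heme and iron-sulfur proteins of its mitochondria.

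The iron-responsive elements are shown because they are the feature that ties Tfrc, the ferritin chains and ferroportin to each other. Each was found in GENCODE M21 transcripts, whose coordinates are those of mouse build mm10, as a C, then 5 bases of any kind, then CAGTGN, read on the transcript strand, with all 5 base pairs of the upper stem possible. The capitals mark the bulged C and the CAGTGN loop, and 6 bases of the lower stem are printed on each side, which gives 29 bases, 5′ to 3′.
Tfrc, element 1: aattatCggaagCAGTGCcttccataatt
Tfrc, element 2: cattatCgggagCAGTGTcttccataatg
Tfrc, element 3: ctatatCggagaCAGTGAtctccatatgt
Tfrc, element 4: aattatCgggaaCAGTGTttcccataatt
Fth1: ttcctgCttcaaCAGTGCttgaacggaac
Ftl1: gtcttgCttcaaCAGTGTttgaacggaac
Slc40a1: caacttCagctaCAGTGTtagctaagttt

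The 4 elements of Tfrc lie in its 3′ UTR on the plus strand of chromosome 16, at chr16:32631219-32631247, chr16:32631598-32631626, chr16:32631663-32631691 and chr16:32631710-32631738. The element of Fth1 lies in the 5′ UTR on the plus strand (chr19:9982732-9982760). That of Ftl1 lies in the 5′ UTR on the minus strand (chr7:45459779-45459807), and that of Slc40a1 in the 5′ UTR on the minus strand (chr1:45925465-45925493). The pattern was found in the 5′ UTR of 13 of 12928 genes (0.101%) and in the 3′ UTR of 94 of 13058 genes (0.72%). Tfrc was the only gene with more than 1 match in its 3′ UTR. The pattern was not found in Slc11a2, which is also described as carrying such an element, and this says only that these letters with these pairs are not in its listed transcripts.

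**Figure D1:**
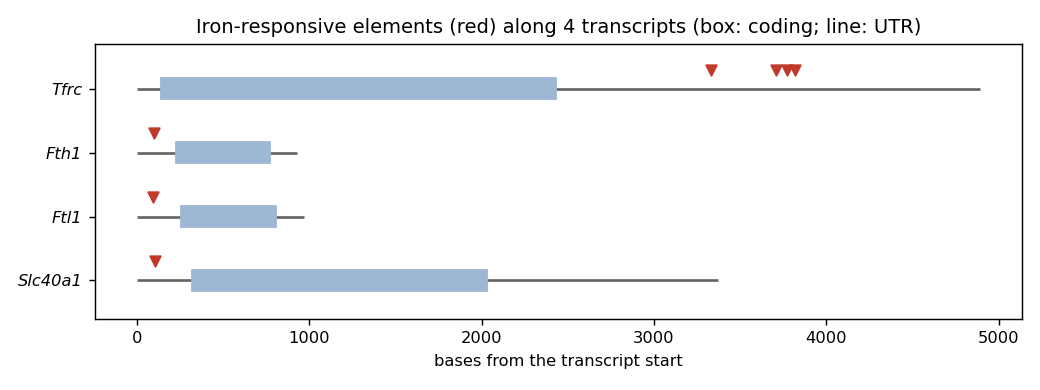
Position of the iron-responsive elements (red triangles) along 1 transcript each of Tfrc, Fth1, Ftl1 and Slc40a1, in bases from the transcript start, with the coding part as a box and the UTRs as a line. The 4 elements of Tfrc begin between 883 and 1374 bases after its coding part, while those of the other transcripts stand before the coding part.

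The counts on genes ranged from 12480706 to 19747596 per mouse, and levels are given as counts per 1000000 counts (CPM) after TMM normalization, which corrects for differences in library composition. The test was edgeR's quasi-likelihood test, and the FDR is the p from this test, adjusted over the 16111 genes by the Benjamini-Hochberg method. A gene is called changed at an FDR under 0.05. Of all genes tested, 1406 were called (8.73%), 663 higher (4.12%) and 743 lower (4.61%) in tumor-bearing mice, and the groups did not overlap for 2766 genes (17.2%). With scaling to total counts only, 225 of 1018 called genes (22.1%) were higher, against 47.2% with TMM. PBS 1-1 stood apart from the other mice on the second principal component, which held 25.2% of the variance, and values without it are given below. Cardiomyocyte markers, 114461 to 123049 CPM in sum over 10 genes in LLC1 mice and 104934 to 106982 CPM in PBS mice, were by far the most abundant of the marker lists and match the labelled tissue.

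Of the 10 iron and heme transcripts, 3 were called (30%, where 8.73% of all genes were): Tfrc and Hmox1 were lower and Fth1 was higher in tumor-bearing mice. For 4 of the 10, these and Ireb2, the values of the groups did not overlap (17.2% of all genes). Their median log2 fold change was -0.06, beside -0.01 over all genes tested. Tfrc had the widest spread between mice, with a coefficient of variation of 31.9% in LLC1 and 35.3% in PBS mice, where the medians over the 10 transcripts were 4.77% and 10.0%.

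**Figure D2:**
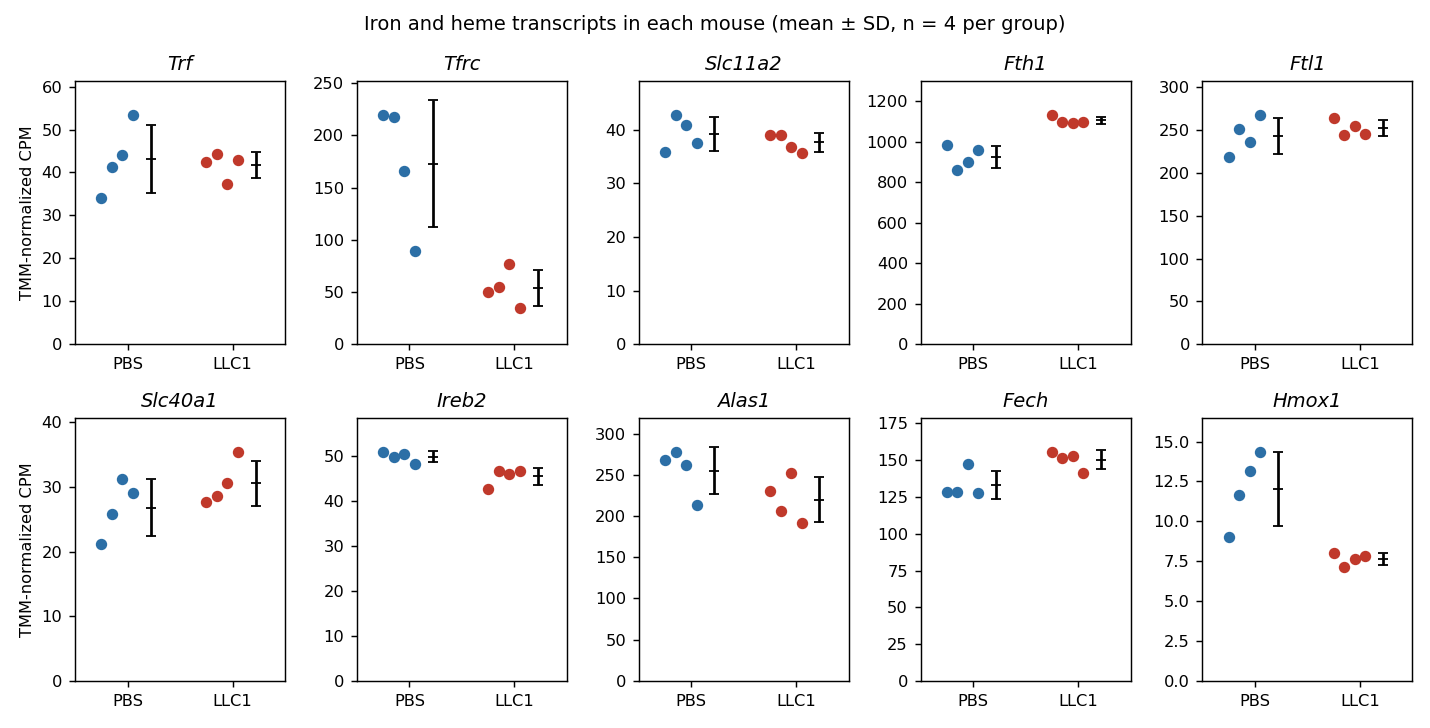
Level of each of the 10 transcripts in each mouse, in TMM-normalized CPM on a linear axis from 0, with PBS mice in blue, LLC1 mice in red, and the mean ± SD of the 4 mice of a group in black. The groups are apart for Tfrc, Fth1, Ireb2 and Hmox1 and overlap for the other 6 transcripts.

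Among the genes of delivery and uptake, the transferrin receptor fell to 0.313 of its level in PBS mice (95% interval 0.207 to 0.471). Tfrc (ENSMUSG00000022797, plus strand of chromosome 16, 32608920 to 32632794) had 219, 217, 166 and 89.2 CPM in PBS 1-1, 1-3, 2-1 and 2-5. It had 49.7, 54.3, 76.8 and 35.1 CPM in LLC1 1-2, 1-3, 1-5 and 2-2. PBS 2-5 was well below the other PBS mice and LLC1 1-5 was the highest of its group, yet all LLC1 values were below all PBS values. The means were 54.0 ± 17.2 CPM (SD, n = 4) and 173 ± 61.0 CPM (SD, n = 4), for a log2 fold change of -1.68 with a standard error of 0.27 (FDR = 0.00476 in edgeR's quasi-likelihood test). The exact permutation p was 0.0286, 2-sided, which is the smallest that 70 arrangements of 4 mice against 4 allow. Without PBS 1-1 the log2 fold change was -1.54 (edgeR FDR = 0.00321), and without PBS 2-5 it was -1.90 (edgeR FDR = 0.000819).

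Of the 16111 genes tested, 44 had a lower log2 fold change than Tfrc, 41 of them called.

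The other genes of delivery and uptake were not called. Slc11a2 (DMT1) had 35.6 to 39.1 CPM in LLC1 and 35.8 to 42.7 CPM in PBS mice, a log2 fold change of -0.06 (95% interval -0.22 to 0.10, edgeR FDR = 0.642). Trf, the iron carrier of plasma, had 37.2 to 44.3 CPM in LLC1 and 34.1 to 53.3 CPM in PBS mice, a log2 fold change of -0.05 (95% interval -0.30 to 0.20, edgeR FDR = 0.813). The LLC1 values of both lie almost wholly within the PBS range. The level of Trf is uncertain, because 63.5% of its exon bases also belong to Gm20425 on the same strand, which had 7862 counts over the 8 mice where Trf had 5484. Gm20425 itself had a log2 fold change of 0.01 (edgeR FDR = 0.978).

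**Figure D3:**
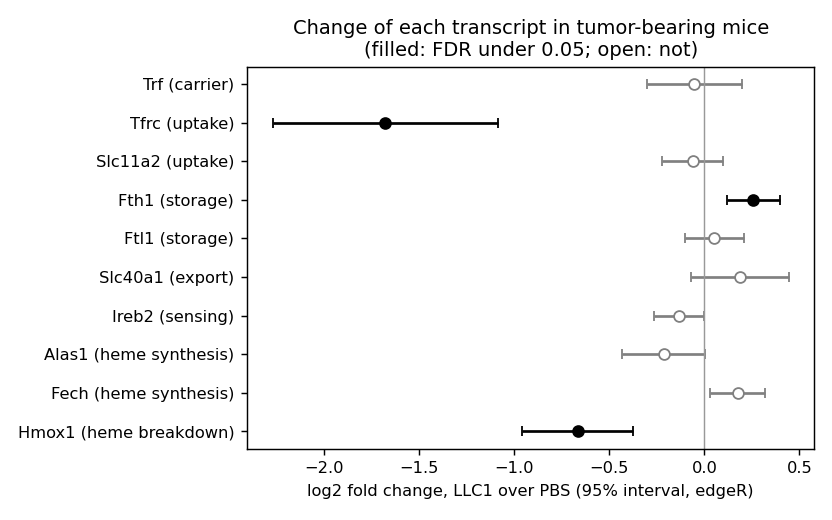
Log2 fold change of each transcript in LLC1 over PBS mice with its 95% interval from edgeR, in order of role, filled where the FDR was under 0.05. Tfrc at -1.68 and Hmox1 at -0.67 lie left of 0 and Fth1 at 0.26 lies right of it, while the other 7 points lie between -0.21 and 0.19.

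Because dividing cells and erythroid precursors carry much transferrin receptor, their markers were set beside Tfrc. The 8 markers of dividing cells summed to 7.14 to 9.30 CPM in LLC1 mice and to 21.2 to 57.3 CPM in PBS mice, and all 5 that could be tested fell, among them Mki67 (1.83 against 14.4 CPM) and Top2a (0.816 against 8.38 CPM). Within the PBS mice, the dividing-cell sums were 22.1, 47.5, 21.2 and 57.3 CPM in PBS 1-1, 1-3, 2-1 and 2-5, where Tfrc was 219, 217, 166 and 89.2 CPM. Their part in the lower Tfrc was not tested.

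Erythroid markers, 11 genes in the table, summed to 1463 to 5213 CPM in LLC1 and 1588 to 3136 CPM in PBS mice, so the groups overlapped, and 0 of the 7 tested were called in edgeR, with 0 at an unadjusted p under 0.05, and 0 by DESeq2 or limma-voom. Nearly all of that sum was hemoglobin. Hba-a2 had the lowest FDR (0.40 in edgeR, log2 fold change 0.52), followed by Hba-a1 (0.458, log2 fold change 0.44), and reads of these near-identical genes may be shared. Markers of erythroid precursors were near 0, with at most 0.252 CPM of Klf1 and 0.140 CPM of Rhag in any mouse.

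**Figure D4:**
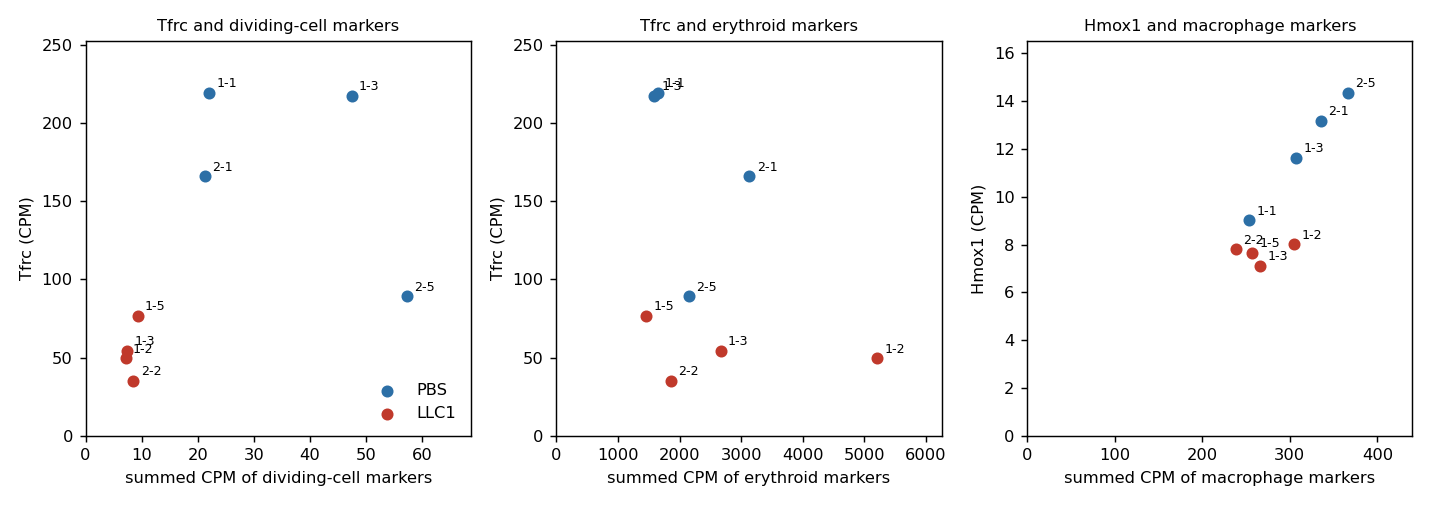
Tfrc against the summed CPM of dividing-cell markers (left) and erythroid markers (middle), and Hmox1 against the summed CPM of macrophage markers (right), 1 point per mouse with its replicate code, PBS in blue and LLC1 in red, on linear axes from 0. The dividing-cell sum separates the groups, at 7.14 to 9.30 against 21.2 to 57.3 CPM, whereas the erythroid and macrophage sums overlap.

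The heavy chain of ferritin rose slightly in tumor-bearing mice, to 1.2 times its PBS level (95% interval 1.09 to 1.32). Fth1 (ENSMUSG00000024661, plus strand of chromosome 19, 9982703 to 9985092) had 984, 859, 898 and 957 CPM in PBS 1-1, 1-3, 2-1 and 2-5. It had 1130, 1100, 1094 and 1098 CPM in LLC1 1-2, 1-3, 1-5 and 2-2. The LLC1 mice lay close together, all above the highest PBS mouse, PBS 1-1. The means were 1106 ± 16.5 CPM (SD, n = 4) and 924 ± 56.6 CPM (SD, n = 4), for a log2 fold change of 0.26 with a standard error of 0.06 (edgeR FDR = 0.0275, exact permutation p = 0.0286). This call depended on the mice included: Fth1 was called without PBS 1-1 (edgeR FDR = 0.00842) or PBS 2-5, but not when any of the other 6 mice was left out, where the highest FDR was 0.101. With scaling to total counts only, its log2 fold change was 0.21 (edgeR FDR = 0.0749). The summed level of the 10 cardiomyocyte markers was also higher in LLC1 mice without overlap. Of the 10, edgeR called 1 higher, DESeq2 and limma-voom called 2 (Tnnt2 added), and edgeR without PBS 1-1 called 3 (Tnnt2 and Tnni3 added). Over all genes, edgeR called 663 higher in all mice and 908 without PBS 1-1. The 1 called by edgeR in all mice was Myh6, the adult cardiac myosin heavy chain (log2 fold change 0.24, edgeR FDR = 0.0209), which is also the most abundant of them at 54332 against 45869 CPM. The log2 fold changes of the 10 lay between -0.17 (Ryr2) and 0.26 (Nppa). Their part in the higher Fth1 was not tested.

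The light chain Ftl1 (minus strand of chromosome 7, 45457944 to 45459884) had 244 to 264 CPM in LLC1 and 218 to 267 CPM in PBS mice. The LLC1 range lay inside the PBS range, with a log2 fold change of 0.05 (95% interval -0.10 to 0.21, edgeR FDR = 0.679). Its counts are partly uncertain. Gm22133 overlaps 8.13% of its exon bases on the same strand and had 8034 counts, beside 31886 counts of Ftl1. The processed copy Ftl1-ps1 is 99.56% identical over 910 bases, and 932 counts were assigned to it, 2.92% of those of Ftl1. The ratio of heavy to light chain per kilobase, on the log2 scale, was 2.76 ± 0.04 (SD, n = 4) in LLC1 and 2.56 ± 0.18 (SD, n = 4) in PBS mice, with overlapping groups.

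A ratio of transcripts within a library does not depend on how libraries are scaled to each other. The log2 ratio of Tfrc to Fth1 counts was -4.41 ± 0.47 (SD, n = 4) in LLC1 and -2.50 ± 0.64 (SD, n = 4) in PBS mice, 1.91 apart, and the groups did not overlap. There were thus 0.0320 to 0.0701 counts of Tfrc per count of Fth1 in LLC1 mice and 0.0932 to 0.253 in PBS mice. Leaving out single mice gave log2 differences between -2.22 and -1.72.

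Ferroportin and IRP2 were not called. Slc40a1 (ferroportin) had 27.6 to 35.4 CPM in LLC1 and 21.1 to 31.3 CPM in PBS mice, a log2 fold change of 0.19 (95% interval -0.07 to 0.44, edgeR FDR = 0.351). Ireb2 (IRP2) had 42.7, 46.6, 45.9 and 46.7 CPM in LLC1 1-2, 1-3, 1-5 and 2-2 and 50.9, 49.7, 50.6 and 48.2 CPM in PBS 1-1, 1-3, 2-1 and 2-5. All LLC1 values of Ireb2 lay below all PBS values (exact permutation p = 0.0286), but the difference was small, with a log2 fold change of -0.13 ± 0.06 (standard error), and its edgeR FDR was 0.195.

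Hmox1, which opens the heme ring, fell to 0.631 of its PBS level (95% interval 0.515 to 0.772). Hmox1 (ENSMUSG00000005413, plus strand of chromosome 8, 75093591 to 75100596) had 9.01, 11.6, 13.2 and 14.3 CPM in PBS 1-1, 1-3, 2-1 and 2-5. It had 8.0, 7.11, 7.66 and 7.80 CPM in LLC1 1-2, 1-3, 1-5 and 2-2. The LLC1 mice were nearly equal and all below the lowest PBS mouse, which was PBS 1-1. The means were 7.64 ± 0.38 CPM (SD, n = 4) and 12 ± 2.3 CPM (SD, n = 4), for a log2 fold change of -0.67 with a standard error of 0.13 (edgeR FDR = 0.0123, exact permutation p = 0.0286). Without PBS 1-1 the log2 fold change was -0.77 (edgeR FDR = 0.000817).

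Macrophages, which digest red cells, are known for strong Hmox1 expression. Their 12 markers summed to 238 to 305 CPM in LLC1 and 254 to 367 CPM in PBS mice, with overlap, and 0 were higher and 2 lower: the mannose receptor Mrc1 (log2 fold change -0.42, edgeR FDR = 0.0301) and Cx3cr1 (log2 fold change -1.08, edgeR FDR = 0.0466). Without PBS 1-1, 5 of the 12 were lower, but calls also rose over all genes. In that fit 1041 of 16319 genes were lower, against 743 of 16111 with all mice. In the PBS mice the order of the macrophage sums, from PBS 1-1 at 254 CPM to PBS 2-5 at 367 CPM, was also the order of Hmox1. In the LLC1 mice the orders differed. The sums were 305, 266, 257 and 238 CPM in LLC1 1-2, 1-3, 1-5 and 2-2, where Hmox1 was 8.0, 7.11, 7.66 and 7.80 CPM. Of the mice with nearly equal sums, LLC1 1-2 (305 CPM) and PBS 1-3 (307 CPM) had 8.0 and 11.6 CPM of Hmox1, and LLC1 1-5 (257 CPM) and PBS 1-1 (254 CPM) had 7.66 and 9.01 CPM. Fibroblast markers summed to 1074 to 1192 CPM in LLC1 and 1151 to 1658 CPM in PBS mice, with 4 of 8 lower (Lum, Col3a1, Col1a2 and Col1a1). Endothelial markers summed to 957 to 1079 CPM and 1043 to 1364 CPM, with 2 of 8 lower (Kdr and Emcn), and 5 of 8 without PBS 1-1. The part of these cells in the lower Hmox1 was not tested.

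The enzymes at the start and the end of heme synthesis were not called. Alas1, the rate-limiting enzyme of heme synthesis outside red cells, had 231, 206, 252 and 191 CPM in LLC1 1-2, 1-3, 1-5 and 2-2. Its values were 268, 278, 262 and 213 CPM in PBS 1-1, 1-3, 2-1 and 2-5. The groups overlapped because PBS 2-5 was below 2 of the LLC1 mice, and the log2 fold change was -0.21 (95% interval -0.43 to 0.01, edgeR FDR = 0.207). Fech had 155, 151, 153 and 141 CPM in LLC1 1-2, 1-3, 1-5 and 2-2. It had 128, 129, 147 and 128 CPM in PBS 1-1, 1-3, 2-1 and 2-5. In Fech the overlap was between PBS 2-1 and LLC1 2-2, and its log2 fold change was 0.18 (95% interval 0.03 to 0.32, edgeR FDR = 0.122, exact permutation p = 0.0571).

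Per kilobase of the listed gene length, Fth1 was the most abundant of the 10 transcripts in both groups, at 1277 CPM per kilobase in LLC1 and 1067 in PBS mice, and Ftl1 followed at 188 and 181. Alas1 and Fech came next, at 51.0 and 51.8 in LLC1 and 59.2 and 45.8 in PBS mice, and their ranges overlapped in both groups. In PBS mice Tfrc came after these, at 27.9 CPM per kilobase, overlapping the range of Trf at 13.0. In LLC1 mice Tfrc, at 8.73, lay between Trf at 12.6 and Ireb2 at 7.83 and overlapped both. Slc11a2 (5.93 and 6.17 in LLC1 and PBS mice), Hmox1 (3.54 and 5.57) and Slc40a1 (3.40 and 2.98) were the least abundant. The range of Hmox1 overlapped that of Slc40a1 in LLC1 mice and that of Slc11a2 in PBS mice.

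The wider iron and heme pathways were read from 8 lists holding 88 genes, the 10 above included, of which 79 were tested. Among the 69 tested genes other than the 10, 5 were called, all higher, which is 7.25% and close to the 8.73% of all genes. These were Lcn2, Cp, Slc25a28, Iscu and Clpx, and their values did not overlap between the groups.

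**Figure D5:**
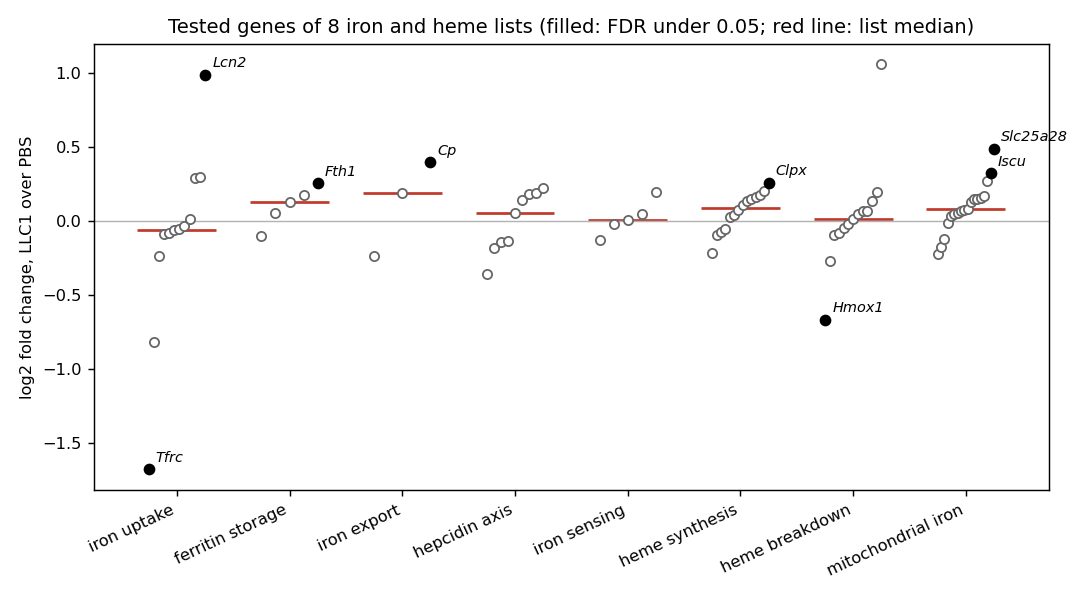
Log2 fold change in LLC1 over PBS mice of each tested gene of 8 iron and heme lists, filled and named where the edgeR FDR was under 0.05, with the list median as a red line. Tfrc at -1.68 is the lowest point, and the list medians lie between -0.06 and 0.19.

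Of 12 tested genes of iron uptake, Tfrc was lower and Lcn2 higher, with a median log2 fold change of -0.06. Lcn2 encodes lipocalin 2, which binds iron-carrying siderophores and is made by neutrophils and in inflammation. It had 9.0, 5.40, 6.67 and 4.73 CPM in LLC1 1-2, 1-3, 1-5 and 2-2, and 3.00 to 3.48 CPM in PBS mice, so the log2 fold change was 0.99 ± 0.20 (standard error, edgeR FDR = 0.0118). Of the 3 tested markers of neutrophils and lymphocytes, the neutrophil genes S100a8 and S100a9 were also higher, at 0.888 against 0.279 and 1.13 against 0.353 CPM, while Ptprc, the pan-leukocyte CD45, was lower. DESeq2 also called S100a9 but gave no adjusted p for S100a8, and the neutrophil genes Ly6g, Camp and Ngp were too low to test, with at most 0.177 CPM in any mouse. The part of such cells in the higher Lcn2 was not tested.

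Of 3 tested export genes, 1 was higher. Cp, the ferroxidase ceruloplasmin that loads exported iron onto transferrin, had 148 ± 15.7 CPM (SD, n = 4) in LLC1 and 112 ± 7.51 CPM (SD, n = 4) in PBS mice (log2 fold change 0.40, edgeR FDR = 0.0154). The call of Cp was lost without LLC1 1-3 (edgeR FDR = 0.0553). Of 5 tested genes of ferritin storage, Fth1 was the 1 called by edgeR, and the median was 0.13. DESeq2 called 2, the other being Pcbp2, an iron chaperone that delivers iron to ferritin, whose groups did not overlap (198 ± 5.91 against 175 ± 5.40 CPM, SD, n = 4, edgeR FDR = 0.0702).

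The lists of hepcidin control and iron sensing held no called gene. Hepcidin, the hormone that degrades ferroportin, is encoded by Hamp, which was among 3 of 12 genes with too few counts to test. In the 9 tested genes of that list 0 were called by edgeR, 1 had an unadjusted p under 0.05, and the lowest FDRs were those of Hfe (log2 fold change -0.18, edgeR FDR = 0.106) and Hjv (log2 fold change -0.14, edgeR FDR = 0.207). In the 5 genes of iron sensing 0 were called by edgeR and 2 had an unadjusted p under 0.05. DESeq2 and limma-voom also called 0 genes of both lists. The lowest FDRs were those of Epas1, the hypoxia factor HIF-2α (log2 fold change 0.20, edgeR FDR = 0.141), and Ireb2. Epas1 was called when the leading number of the mouse code was a covariate.

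Of 14 genes of heme synthesis, 1 was higher. Clpx, a mitochondrial chaperone that acts on ALA synthase, had 125 ± 2.98 CPM (SD, n = 4) in LLC1 and 104 ± 7.70 CPM (SD, n = 4) in PBS mice (log2 fold change 0.26, edgeR FDR = 0.0298). Its call was lost with scaling to total counts only (edgeR FDR = 0.128) and when any of 5 single mice was left out. In heme breakdown, Hmox1 was the 1 called of 13 tested genes, and the median was 0.02.

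Of 18 genes of mitochondrial iron, 2 were higher and 0 lower (11.1% called, where 8.73% of all genes were). Slc25a28, the mitochondrial iron importer mitoferrin 2, had 24.6, 24.9, 23.7 and 27.0 CPM in LLC1 1-2, 1-3, 1-5 and 2-2, and 16.6 to 18.9 CPM in PBS mice. The gap between the groups was wider than the range within either, and the log2 fold change was 0.49 ± 0.08 (standard error, edgeR FDR = 0.00511). Iscu, the scaffold on which iron-sulfur clusters are built, had 84.7 ± 4.53 CPM (SD, n = 4) and 67.6 ± 6.11 CPM (SD, n = 4) in LLC1 and PBS mice (log2 fold change 0.33, edgeR FDR = 0.0210). The call of Slc25a28 was kept whichever mouse was left out, while that of Iscu was lost without LLC1 1-2, 1-3 or 1-5 or PBS 1-3. Without PBS 1-1, 4 genes of this list were higher, but calls also rose over all genes. In that fit 908 of 16319 genes were higher, against 663 of 16111 with all mice. The median of the list was 0.08.

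Among the transcripts described as carrying an iron-responsive element, Fth1 was higher and Tfrc lower, as above. Ftl1, Slc40a1, Alas2, Epas1 and Slc11a2 were not called, with log2 fold changes between -0.06 and 0.20.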

How the data were processed

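The counts are whole numbers of reads per gene that the authors deposited for each mouse, without normalization, from TruSeq libraries read as 150-base pairs. Per the labels, the processing notes name CASAVA, STAR, featureCounts and mm10. Versions, annotation, strand setting and the treatment of reads with several matches are not given in the sources used here, so reads of Alas1 and Slc11a2 may be shared with opposite-strand genes that cover 7.53% and 6.33% of their exon bases. Gene lengths are as deposited.

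The 10 genes and the gene lists were chosen with earlier results of these data known. Mice were grouped by the stated treatment and treated as unpaired. Counts were tested with edgeR 4.0.16 in R 4.3.3 (filterByExpr, TMM, glmQLFit, glmQLFTest), and the standard error is the absolute log2 fold change over the square root of F. Of each list, up to 6 called genes were named, or otherwise the 2 with the lowest FDR. Alternatives were DESeq2 1.42.0, limma-voom (limma 3.58.1), upper-quartile or total-count scaling, filters of at least 1 count in any or 10 counts in every mouse, robust empirical Bayes, a covariate for the leading number of the mouse code, and each mouse left out. The steps were tested on simulated data. Similar transcripts were searched with BLAST 2.17.0 (at least 97% identity over at least 150 bases). P-values judge the difference between the groups against the variation between these mice. Some list genes enter the counts without values of their own, which are not reported here.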

Additional observations from a re-analysis of the deposited data

Results flagged for a closer look

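In 3 of 40 sets of 4 mice, 1 mouse lay far from the other mice of its group, measured as its gap to the nearest mouse over the whole range, and chance gives about 1 in 20. Fth1 was 1130 CPM in LLC1 1-2, above the other LLC1 mice (0.855 of the range), and without this mouse its log2 fold change was 0.25 (edgeR FDR = 0.0662). Fech was 147 CPM in PBS 2-1, above the other PBS mice (0.962). Cp was 124 CPM in LLC1 1-2, below the other LLC1 mice (0.936).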

How the results depend on the processing

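Tfrc and Hmox1 kept their direction and their call under all 8 alternatives and with each mouse left out, with log2 fold changes between -1.90 and -1.52 and between -0.77 and -0.58 and a highest edgeR FDR of 0.0404 and 0.0457. The number of the 10 transcripts called was 2 with total counts only and 3 with the other alternatives. Leaving out 1 mouse gave 2 or 3, as Fth1 kept its call in 2 of 8 such fits. The number of other pathway genes called was 6 with DESeq2 and 4 to 7 over the alternatives, and between 2 (without LLC1 1-3) and 7 (without PBS 1-1) with 1 mouse left out. Over all genes the number called was between 542 (without PBS 1-3) and 1949 (without PBS 1-1). The log2 fold change of Trf turned to 0.015 with the replicate code as covariate and ran from -0.15 to 0.061 with 1 mouse left out, and that of Ftl1 turned to -0.0054 with total counts only; neither was called in any fit. With all 8 mice, 1406 genes were called. This number rose without PBS 1-1 or without PBS 2-5 (1637) and fell without any other mouse. The cause of these and the other changes was not tested. No paired analysis was possible because the groups share only 1 replicate code. At 1 CPM a gene has about 12 to 20 counts, which limits low genes such as Lcn2 and Hmox1 more than Fth1.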

Other observations

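Fth1 and Hmox1 are also targets of NRF2, the factor of the oxidative stress response. Of the 9 tested genes of the NRF2 list, Fth1 was higher and Hmox1 and Srxn1 lower, with a median log2 fold change of 0.02. Srxn1, which repairs oxidized peroxiredoxins, had 17.4 to 20.4 CPM in LLC1 and 24.5 to 25 CPM in PBS mice (log2 fold change -0.36, edgeR FDR = 0.0132), and its call was kept in all 8 fits that left out a mouse.

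Tfrc is also a target of the hypoxia factors. Of the 10 genes of that list, Bnip3, a mitochondrial receptor for autophagy, was higher and Tfrc lower, with a median of 0.22. Bnip3 had 169 ± 14.0 CPM (SD, n = 4) in LLC1 and 133 ± 14.1 CPM (SD, n = 4) in PBS mice, a log2 fold change of 0.35 (edgeR FDR = 0.0278). Its call was kept in 3 of the 8 fits that left out a mouse. The lists of NRF2 and hypoxia targets share genes with the iron lists and were chosen with results of these data known.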
